A study of Rattus norvegicus with 4 samples.

Results

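The miRNAs that mark blood leukocytes were followed in small RNA sequencing of rat serum exosomes (Exos), the vesicles that cells release into the circulation. The set holds every listed arm of 6 hairpins, namely miR-150, miR-142, miR-223, miR-146a, miR-155 and miR-342. The deposited table listed 9 such arms among 243 miRNAs. Of these, 4 arms are lymphoid (miR-150-5p, miR-155-5p, miR-342-3p and miR-342-5p), 2 are myeloid (miR-223-3p and miR-223-5p) and 3 come from hairpins used by both lineages (miR-142-3p, miR-142-5p and miR-146a-5p). Serum Exos were sequenced in 4 libraries, 2 labelled Exercise, from rats trained on a treadmill for 4 weeks, and 2 labelled Sedentary, from untrained rats. The series design names 20 rats in each group, and how they were divided among the libraries is not given, so p-values measure only the spread between these libraries. The titles appear to go against the treatment labels, since the libraries labelled Sedentary have titles that open with E and those labelled Exercise have titles that open with N. Which of them names the trained rats was not settled here. Groups follow the treatment labels and are called Exe-labelled and Sed-labelled throughout. If the labels were exchanged, the sign of each difference would turn, so no direction given below can be read as an effect of training.

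A miRNA is cut from a hairpin precursor whose strands give a 5p and a 3p arm, and the seed of the loaded arm pairs with target mRNAs. In blood, miR-150 is abundant in mature B, T and NK cells and restrains the transcription factor Myb, whereas miR-155 is induced when lymphocytes and macrophages are activated. miR-223 is abundant in neutrophils and monocytes and is also abundant in platelets. miR-142 is expressed across hematopoietic cells, and miR-146a is induced by NF-κB and dampens its signaling through Traf6 and Irak1.

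The mature sequences are shown because the arms are told apart by them alone, and because the seed, bases 2 to 8 in capitals, groups the arms by their targets. They were taken from the deposited table, which writes T for U. The lymphoid arms come first, then the myeloid arms, then those shared by both lineages, and last miR-146b-5p, which is outside the set.
rno-miR-150-5p: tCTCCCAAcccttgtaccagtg
rno-miR-155-5p: tTAATGCTaattgtgataggggt
rno-miR-342-3p: tCTCACACagaaatcgcacccgt
rno-miR-342-5p: aGGGGTGCtatctgtgattgag
rno-miR-223-3p: tGTCAGTTtgtcaaatacccc
rno-miR-223-5p: cGTGTATTtgacaagctgagttg
rno-miR-142-3p: tGTAGTGTttcctactttatgga
rno-miR-142-5p: cATAAAGTagaaagcactact
rno-miR-146a-5p: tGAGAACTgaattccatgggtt
rno-miR-146b-5p: tGAGAACTgaattccataggctgt

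The 9 arms carry 9 different seeds, so no seed is shared within the set. Among all listed miRNAs, miR-146b-5p alone has the seed of an arm of the set, that of miR-146a-5p. These sequences are identical over their first 17 bases and lie 3 edits apart, and reads of at least 18 nt were kept. Each other arm lies at least 8 edits from its closest listed sequence. In RefSeq (GRCr8), 8 of the 9 arms were matched by name, and the sequence was the same for 8 of 8. The gene table of that assembly places Mir142 within the span of Tspoap1, Mir342 within Evl and Mir155 within Mir155hg, the long noncoding RNA that serves as its precursor. Coordinates are left out, since the reads were aligned to mRatBN7.2.

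Values are RPM, reads scaled to a common total for all libraries. The read total of a library was 20780612 to 22140315 reads, and the listed miRNAs received 2.93% to 3.92% of that. A count of 0 allows up to 3 reads, or 0.135 to 0.144 RPM in these libraries. Such floors and the intervals below cover counting error only, since the values carry no molecular identifiers. Many miRNAs had reads in a library and none in the other of its group. A pair of 0 and at least 40 reads was found for 56 of the 243 miRNAs in the Sed-labelled libraries, among them miR-142-3p, miR-223-3p and miR-342-5p, and for 23 in the Exe-labelled ones, among them miR-142-5p. The most abundant miRNA was miR-486, which marks red cells.

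The set took 0.765% (95% Wilson interval 0.744% to 0.785%) and 0.801% (0.779% to 0.822%) of the listed miRNA reads in the Exe-labelled libraries. It took 0.340% (0.327% to 0.353%) and 0.370% (0.357% to 0.383%) in the Sed-labelled ones. The summed level was higher in each Exe-labelled library, at 241 and 235 RPM, than in each Sed-labelled one, at 116 and 145 RPM. On the log2 scale the difference of the sum was 0.87, with means of 7.89 ± 0.028 (SD, n = 2) and 7.02 ± 0.22 (SD, n = 2). An exact two-sided permutation test of 2 libraries against 2 gave p = 0.33, the smallest that it can give. Whether more vesicles came from leukocytes or each held more miRNA cannot be told apart in such bulk values.

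Most of this difference lay in miR-150-5p. The lymphoid arms together held 194 and 160 RPM in the Exe-labelled libraries, against 59.2 and 87.3 RPM in the Sed-labelled ones. The myeloid arms held 8.78 and 5.56 RPM, against 18.6 and 7.84 RPM, and as a share of the listed reads these groups overlapped. The arms of miR-142 and miR-146a held 37.9 and 68.7 RPM, against 38.7 and 49.8 RPM, and overlapped as well. Within the lymphoid arms, miR-150-5p took 76.5% and 80.6% of the reads in the Exe-labelled libraries and 70.2% and 65.2% in the Sed-labelled ones. By itself, it made up 61.7% and 55.1% of the reads of the set in the Exe-labelled libraries and 35.7% and 39.3% in the Sed-labelled ones.

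**Figure D1:**
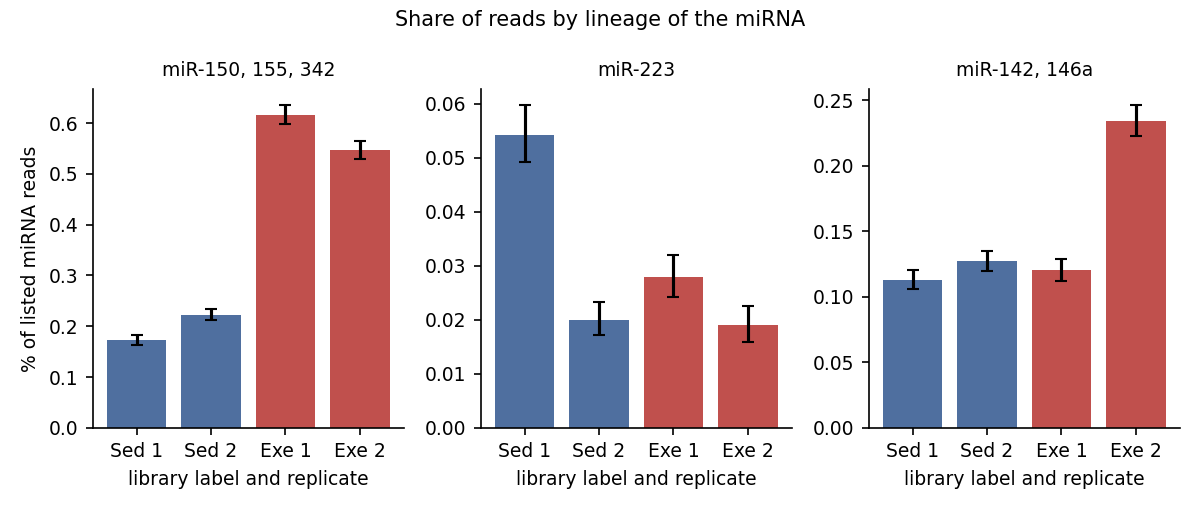
Share of the listed miRNA reads (y axis, %, with a scale of its own in each panel) taken by the arms of miR-150, miR-155 and miR-342, of miR-223, and of miR-142 and miR-146a in the 4 libraries (x axis: Sed, labelled Sedentary; Exe, labelled Exercise; error bars, 95% Wilson intervals for counting error). The first panel rises from 0.173% and 0.223% to 0.617% and 0.547%, while in the other panels the groups overlap.

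The 9 arms spanned a wide range. By the mean over the 4 libraries the order was rno-miR-150-5p (94.1 RPM), rno-miR-146a-5p (44.1 RPM), rno-miR-342-3p (28.7 RPM), rno-miR-223-5p (8.17 RPM), rno-miR-142-3p (3.09 RPM), rno-miR-223-3p (2.02 RPM), rno-miR-342-5p (2.01 RPM), rno-miR-142-5p (1.58 RPM) and rno-miR-155-5p (0.477 RPM). The arms are 21 to 23 nt long, and division by length left this order of the means as it was. The upper neighbours were ordered alike in most libraries, with miR-150-5p above miR-146a-5p in 4 of 4, miR-146a-5p above miR-342-3p in 3 of 4 and miR-342-3p above miR-223-5p in 4 of 4. miR-223-5p lay above miR-142-3p in 3 of 4. From miR-142-3p down, each arm exceeded the next in only 2 of 4 libraries, so neighbours in this lower part of the order were not separated beyond the spread between libraries. Of the 9 arms, 4 were above 0 in all libraries.

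**Figure D2:**
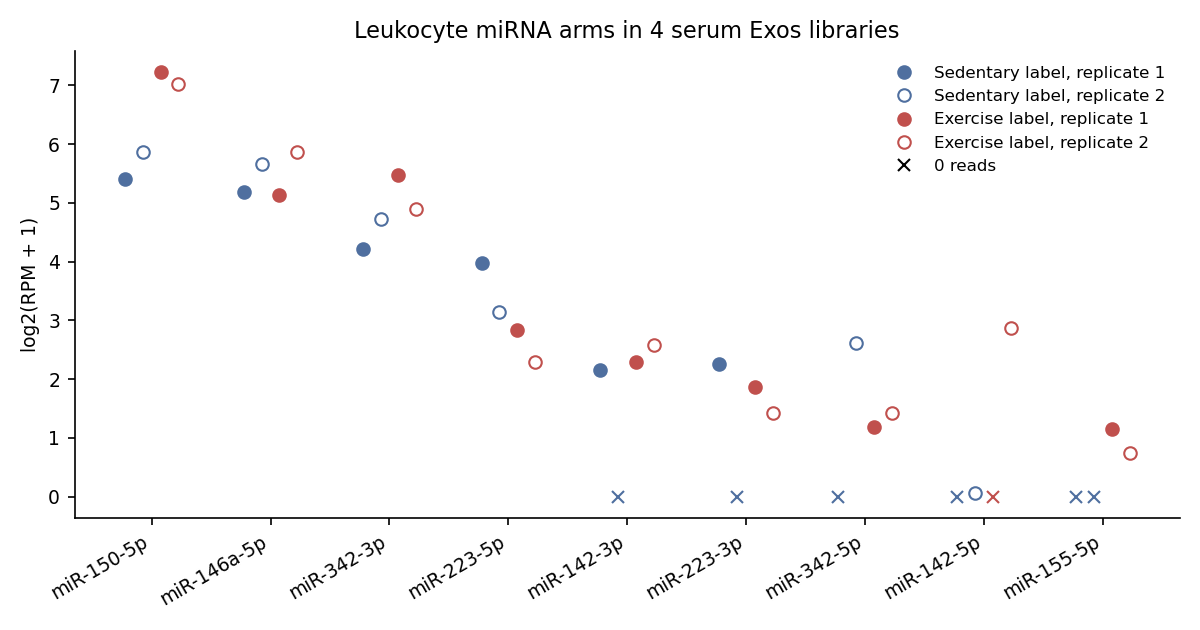
Level of each of the 9 arms (x axis, ordered by mean) in the 4 libraries as log2(RPM + 1) (y axis; filled and open circles, replicates 1 and 2; blue, labelled Sedentary; red, labelled Exercise; crosses, 0 reads). The red circles of miR-150-5p lie at 149 and 129 RPM and the blue ones at 41.6 and 56.9 RPM, and zeros occur only for the 5 least abundant arms.

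Levels were compared between the labels with limma on log2(RPM + 1) for the 178 miRNAs above 0 in at least 2 libraries, which include all 9 arms. Calls needed a log2 fold change beyond 1 in size and, after Benjamini-Hochberg adjustment, a p under 0.05. Of the 9 arms, 1 was called, miR-150-5p, against 7.87% of all 178 miRNAs (14, split into 9 higher and 5 lower in the Exe-labelled libraries). Median-of-ratios scaling turned this split into 5 and 9, and miR-150-5p stayed among the higher ones (log2 fold change 1.39). The median log2 fold change was 0.71 over the 9 arms and 0.21 over all miRNAs tested, and 7 arms had a value above 0 and 2 below. The libraries labelled Exercise were higher without overlap for 4 arms (miR-150-5p, miR-142-3p, miR-155-5p and miR-342-3p), against 32.0% of all miRNAs. The Sed-labelled ones were higher without overlap for 1 arm (miR-223-5p), against 20.2%. In either direction this makes 5 of 9 arms, against 52.2%, so these counts are near the background and are not read as a result about the set. For arms of low level the fitted value depended on the pseudocount and the model. Over the settings that used all libraries the log2 fold change was 0.32 to 3.94 for rno-miR-142-3p, 0.35 to 3.23 for rno-miR-142-5p, 0.050 to 2.81 for rno-miR-223-3p and -1.16 to -0.49 for rno-miR-223-5p, and none of these 4 arms was called.

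**Figure D3:**
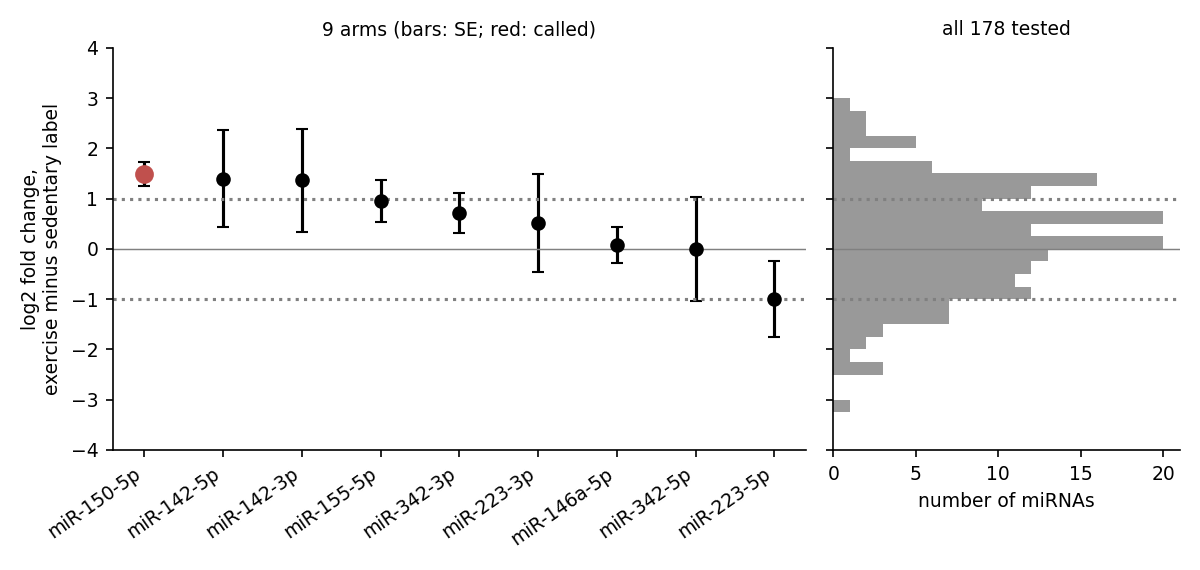
Left, log2 fold change (y axis, label Exercise minus label Sedentary, on the scale of log2(RPM + 1)) of the 9 arms with their SEs from limma; dotted lines, the threshold of 1; red, called. Right, the number (x axis) of all 178 miRNAs tested at each log2 fold change; miR-150-5p at 1.49 has the shortest error bar of the arms, and miR-223-5p at -1.0 the lowest value.

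Among the lymphoid arms, miR-150-5p held 149 and 129 RPM (3268 and 2864 reads) in the Exe-labelled libraries and 41.6 and 56.9 RPM (915 and 1183 reads) in the Sed-labelled ones. The groups stood apart by more than their spread, at 139 ± 13.7 against 49.2 ± 10.9 RPM (SD, n = 2 each), a ratio of the means of 2.82. It ranked 25th of the 243 miRNAs in both Exe-labelled libraries and 48th and 43rd in the Sed-labelled ones. Its log2 fold change was 1.49 (SE 0.24), with an adjusted p of 0.025 by limma. The size of this difference does not depend on which label is right, but its direction does. The call was lost when miRNAs of low value were kept in (adjusted p = 0.053), with a variance prior common to all miRNAs (0.12) or without Exercise replicate 1 (0.15), although its log2 fold change stayed between 1.27 and 1.71 with each library left out in turn.

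miR-342-3p, whose gene lies within that of the cytoskeletal regulator Evl, held 43.2 and 28.8 RPM in the Exe-labelled libraries and 17.6 and 25.3 RPM in the Sed-labelled ones. The groups did not overlap, but the nearest libraries of different labels lay closer than those of a label did. Its log2 fold change of 0.71 (SE 0.39, limma adjusted p = 0.30) was not called, and it ranged from 0.43 without Exercise replicate 1 to 1.00 without Exercise replicate 2. The other arm, miR-342-5p, held 1.27 and 1.67 RPM against 0 and 5.10 RPM, so that the Sed-labelled libraries lay on either side of the Exe-labelled ones. Its log2 fold change was -0.0031 (SE 1.03).

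miR-155-5p had 27 and 15 reads (1.23 and 0.677 RPM) in the Exe-labelled libraries and 0 reads in both Sed-labelled ones. It entered the comparison only through the Exe-labelled libraries, so its direction follows from the filter. The mean of the Exe-labelled libraries was 6.79 times a floor of 3 reads per library. That floor covers counting error only, and 56 of the 243 miRNAs had 0 beside at least 40 reads in the Sed-labelled pair. The ratio is therefore a description and no lower bound. limma did not call miR-155-5p (log2 fold change 0.95, SE 0.42, adjusted p = 0.20). Since both Sed-labelled libraries were at 0, the fitted value is set by the pseudocount and is no bound, at 3.35 with a pseudocount of 0.1 and at 0.13 with 10, and at 5.32 with limma voom on the derived reads. At this depth its absence from the Sed-labelled libraries was not shown.

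Neither myeloid arm was called. miR-223-5p held 6.14 and 3.88 RPM in the Exe-labelled libraries and 14.8 and 7.84 RPM in the Sed-labelled ones, without overlap. Its log2 fold change was -1.0 (SE 0.76, limma adjusted p = 0.45) and was not called, and it ranged from -1.42 without Sedentary replicate 2 to -0.58 without Sedentary replicate 1. miR-223-3p, the arm usually loaded in neutrophils, held 2.64 and 1.67 RPM against 3.77 and 0 RPM, and the groups overlapped (log2 fold change 0.51, SE 0.97). Without Sedentary replicate 2, in which it had 0 reads, the value was -0.61.

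The ratio of a lymphoid to a myeloid arm within a library does not depend on the scaling of that library, apart from the pseudocount of 1. The log2 ratio of miR-150-5p to miR-223-3p was 5.36 and 5.61 in the Exe-labelled libraries and 3.16 and 5.86 in the Sed-labelled ones. The groups overlapped, with a difference of 0.98 and p = 1 in the exact two-sided permutation test, and without Sedentary replicate 1 the difference turned to -0.37. With miR-223-5p, which had reads in each library, as the myeloid arm, a choice made after seeing the data, the log2 ratio was 4.39 and 4.74 against 1.43 and 2.71. These arms already stood apart in opposite directions, so their ratio could only separate the labels, and its difference of 2.49 is a description.

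Among the arms shared by both lineages, miR-146a-5p held 34.0 and 57.4 RPM in the Exe-labelled libraries and 35.2 and 49.8 RPM in the Sed-labelled ones. The libraries of a label differed more than the labels did, and the log2 fold change was 0.077 (SE 0.36, limma adjusted p = 0.89). It turned to -0.023 under median-of-ratios scaling. miR-146b-5p, with the same seed, held 73.2 and 74.8 RPM against 52.5 and 56.6 RPM without overlap, and was not called (log2 fold change 0.43, SE 0.21, limma adjusted p = 0.24).

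miR-142-3p held 3.91 and 5.01 RPM in the Exe-labelled libraries and 3.45 and 0 RPM in the Sed-labelled ones. Its log2 fold change of 1.37 (SE 1.02, limma adjusted p = 0.45) rested on the library at 0, since it was 0.29 without Sedentary replicate 2. Without Sedentary replicate 1, which leaves that library alone in its group, it was 2.44 and was called (limma adjusted p = 0.037, which then assumes that the lone library varies as the others do). miR-142-5p had 139 reads (6.28 RPM) in Exercise replicate 2, 1 read in Sedentary replicate 2 and 0 reads in the other libraries. Its log2 fold change of 1.40 (SE 0.97, limma adjusted p = 0.43) therefore came from 1 library. It was 2.83 without Exercise replicate 1, and without Exercise replicate 2 or Sedentary replicate 2 the arm no longer passed the filter on low values.

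The arms of miR-223 and of miR-342 were used unequally in each library. For miR-223 the 5p arm held more reads than the 3p arm in each library, at 69.9% (95% Wilson interval 63.1% to 76.0%) and 69.9% (61.3% to 77.3%) of the reads of both arms in the Exe-labelled libraries. The share was 79.7% (75.5% to 83.3%) and 100% (97.7% to 100%) in the Sed-labelled ones. For miR-342 the 3p arm prevailed, and the 5p arm took 2.86% (1.99% to 4.11%) and 5.49% (4.01% to 7.48%) of the reads in the Exe-labelled libraries. In the Sed-labelled ones it took 0% (0% to 0.980%) and 16.8% (14.1% to 19.9%), on either side of the former. For miR-142 the share of the 5p arm was 0% of 86 reads (0% to 4.28%) and 55.6% of 250 reads (49.4% to 61.6%, which includes equal use) in the Exe-labelled libraries. It was 0% of 76 reads (0% to 4.81%) and 1 of 1 read in the Sed-labelled ones, so no order of the labels can be read from it. The log2 ratio of its arms differed by 0.033 between the labels, with overlap of the groups (exact permutation p = 1).

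**Figure D4:**
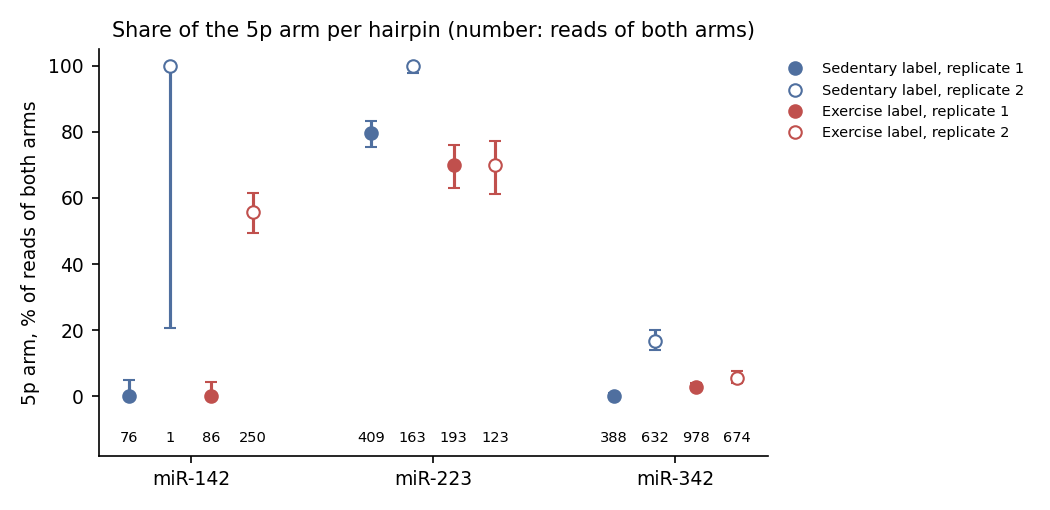
Share of the 5p arm (y axis, % of the reads of both arms) for miR-142, miR-223 and miR-342 in each library (error bars, 95% Wilson intervals for counting error; numbers, reads of both arms; filled and open circles, replicates 1 and 2; blue, labelled Sedentary; red, labelled Exercise). The points of miR-223 lie at or above 69.9% and those of miR-342 at or below 16.8%, while those of miR-142 range from 0% to 100%.

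By the distance between profiles of log2(RPM + 1) over the 4 libraries, each centred on its own mean, the closest of the 169 other miRNAs tested were miR-708-3p (distance 0.32) and miR-7b (0.34) for miR-150-5p. The former held 16.1 and 17.9 RPM in the Exe-labelled libraries and 4.91 and 5.63 RPM in the Sed-labelled ones. For miR-342-3p they were miR-106b-3p (0.17) and miR-374-5p (0.20), and for miR-155-5p miR-17-5p (0.27) and miR-30e-3p (0.28). For miR-223-5p they were miR-3596a (0.41) and miR-375-3p (0.49), and for miR-223-3p miR-129-5p (0.27) and miR-484 (0.52). miR-3553 (0.29) and miR-363-3p (0.40) were closest to miR-146a-5p, and miR-149-5p (0.23) and miR-3571 (0.35) to miR-142-3p. For miR-342-5p they were miR-652-3p (0.31) and miR-340-3p (0.39), and for miR-142-5p miR-351-5p (1.03) and miR-191b (1.12). With 4 libraries such closeness is a description.

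Other miRNAs known from white cells were taken as a list of 30, of which 23 were listed and 21 tested. Of these, 1 was called higher in the Exe-labelled libraries and 0 lower by limma, against 5.06% and 2.81% of all miRNAs. The median log2 fold change of this list was 0.51, against 0.21 over all miRNAs tested. The libraries labelled Exercise were higher without overlap for 12 of the 21 and the Sed-labelled ones for 2, against 32.0% and 20.2% of all miRNAs. Among the 12, miR-17-5p and miR-19b-3p were at 0 in both Sed-labelled libraries. They entered only through the Exe-labelled ones, so their direction follows from the filter, and these counts are a description. The summed level of the list overlapped between the labels, at 5970 and 5367 RPM in the Exe-labelled libraries and 6099 and 5137 RPM in the Sed-labelled ones. Most of this sum was miR-10a-5p, at 3482.0 and 3093.5 RPM against 4491.3 and 3179.2 RPM, and miR-25-3p, at 1584 and 1346 RPM against 1047 and 1303 RPM. The sum thus says little on the other members. miR-16-5p is also in the red cell list below, and miR-21-5p and miR-24-3p are in the platelet list. The called member, miR-26a-5p, held 288 and 301 RPM in the Exe-labelled libraries against 134 and 96.9 RPM (log2 fold change 1.36, SE 0.20, limma adjusted p = 0.025). This direction, too, rests on the treatment labels.

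Markers of other cells were summed in the same libraries, and their part in the values above was not tested. Of the red cell list, 6 of 7 were listed, and its summed level was 4807 to 5774 RPM in the Exe-labelled libraries and 8768 to 11312 RPM in the Sed-labelled ones. Nearly all of this sum was miR-486, at 5710 and 4724 RPM against 8754 and 11162 RPM. The list did not move one way, since the median log2 fold change of its 4 tested members was 0.38 and miR-16-5p held 8.42 and 8.67 RPM against 0 and 1.97 RPM. Its defining marker miR-451-5p held 54.0 and 70.4 RPM against 14.7 and 148 RPM and overlapped, while miR-144-3p and miR-144-5p had reads in a single Exe-labelled library each. Of the platelet list 6 of 6 were listed, at a sum of 235 to 254 RPM against 183 to 191 RPM. Its members did not move one way, and none was called. miR-191a-5p was higher in the Exe-labelled libraries without overlap, at 102 and 81.5 RPM against 48.2 and 35.6 RPM, as was miR-126a-5p. miR-24-3p lay the other way without overlap, at 38.6 and 41.6 RPM against 44.8 and 46.3 RPM, and the other members overlapped. The liver list summed to 811 to 821 RPM against 1462 to 1601 RPM, with 3 of 3 listed, and most of that was miR-122-5p. The muscle list, with 4 of 4 listed, summed to 449 to 497 RPM against 371 to 428 RPM. Most of it was miR-1-3p, at 473 and 435 RPM against 327 and 355 RPM, whereas miR-206-3p lay the other way without overlap, at 21.9 and 14.8 RPM against 41.6 and 72.9 RPM. The median log2 fold change of the 3 muscle miRNAs tested was -0.091.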

How the data were processed

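The libraries, 4 in number, hold small RNA from serum Exos. The authors trimmed reads with cutadapt, kept reads of 18 to 35 nt, aligned them to mRatBN7.2 and counted them on the mature miRNAs of miRBase. The authors divided the reads of each miRNA by a library total and deposited the result as RPM values, which they name TPM but which are not scaled for length. Which reads the total counts is not given in the sources used here. All non-zero values were whole multiples (100%, within 1e-06) of the smallest value of their library, which was taken as 1 read to give read totals and floors. Since the deposited values are RPM and not counts, limma 3.58.1 in R 4.3.3 replaced the count model of the study, with its thresholds (adjusted p under 0.05, absolute log2 fold change over 1), a variance prior that follows the mean, a pseudocount of 1 and a filter of above 0 in at least 2 libraries. The fit was also run on simulated reads, and no result above rests on that run. Single values per library were compared with exact permutation tests (scipy 1.17.1, Python 3.11.15). The named miRNAs are all listed arms of the 6 hairpins, any miRNA with their seed, the 2 closest profiles per arm, and called members of a list of other white cell miRNAs. The members and lists were chosen with earlier results of these data known. Alternatives changed the pseudocount, filter, scaling, variance prior, threshold, block and model, or left out each library.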

Additional observations from a re-analysis of the deposited data

How the results depend on the processing

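Of the 9 arms, only miR-150-5p was called under each setting that used all libraries, except that 0 were called by limma without the filter on low values and with a single variance prior, where 1 and 1 passed at an unadjusted p under 0.05 with the fold threshold. The count over all miRNAs, 14, was 3 without the filter, 0 with a single variance prior (44 unadjusted) and 39 at an unadjusted p. With each library left out in turn it ranged from 0 (without Exercise replicate 1) to 39 (without Sedentary replicate 2), with 7 without Exercise replicate 2 and 30 without Sedentary replicate 1. That of the arms ranged from 0 to 2, the latter without Sedentary replicate 1; both counts of 0 came without Exercise replicate 1, where 15 miRNAs and 1 arm passed at an unadjusted p. With a mean of at least 10 RPM, only 3 arms were tested. limma voom on the derived reads called 12 miRNAs, miR-150-5p among them.

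Over the settings with all libraries, the log2 fold change of miR-150-5p lay between 1.34 and 1.52. Its limma adjusted p lay between 1.1e-05, with the replicate block alone, and 0.12, with a single variance prior. The next smallest was 0.0029, with a mean of at least 10 RPM. Those of the arms with libraries at 0 moved widely with the pseudocount and the model, from 0.13 to 5.32 for miR-155-5p, and are given with the results above. The following reversed, and the cause was not tested unless a library at 0 is named above. miR-146a-5p was at -0.023 with median-of-ratios scaling and from -0.29 (without Exercise replicate 2) to 0.45 with a library left out, with -0.17 without Sedentary replicate 1. miR-342-5p was at 1.11 with a pseudocount of 0.1, at 2.12 with limma voom and from -1.31 (without Sedentary replicate 1) to 1.30 (without Sedentary replicate 2) with a library left out. miR-223-3p ranged from -0.61 (without Sedentary replicate 2) to 1.64 with a library left out. The ratio of miR-150-5p to miR-223-3p was at -0.31 and that of the miR-142 arms at -0.21 with a pseudocount of 0.1, and with a library left out they ranged from -0.37 (without Sedentary replicate 1) to 2.33 and from -1.25 (without Exercise replicate 2) to 1.32, the latter with -1.08 without Sedentary replicate 1. The summed level kept its direction, from 0.71 to 1.03 with a library left out and at 0.77 with median-of-ratios scaling.

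Whether the library numbers pair the libraries was not settled. The correlation of deviations was -0.15 for the same number and 0.15 for the crossed number, which mirror each other by construction and so cannot decide it. With the replicate block, 18 miRNAs and 1 arm were called. The crossed replicate block, added after seeing the data, also called 18 and 1. Values under 3 reads could not be told from 0.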
